A study of Mus musculus with 12 samples.

Results

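The fibroblast growth factor (FGF) genes described here are 3 ligands (*Fgf2*, *Fgf7*, *Fgf21*), 3 receptors (*Fgfr1*, *Fgfr2*, *Fgfrl1*) and 4 feedback inhibitors (*Spry1*, *Spry2*, *Spry4*, *Dusp6*), 10 genes of the 27962 gene names on the array. Every probe that the scanner files name with 1 of these symbols was taken, 19 of 41174 probes, whatever its signal. In C57MG cells treated for 24 h, *Spry1* rose with Wnt3a and further with Rspo2 plus Wnt3a (4.22-fold over BSA), and *Fgfrl1* rose with the combination (2.46-fold) but was not called with either protein alone. *Fgf7* read lower and *Fgf21* higher with Wnt3a and with the combination, on signals close to background, and these calls were lost under other ways of processing. The receptor gene *Fgfr1* was lower with Wnt3a and with the combination on each of its 4 probes, by less than 2-fold as reported. With the slide of each array added to the fit, none of its changes with the combination had an adjusted p under 0.05. Its changes with Wnt3a in that fit are not given here. *Dusp6* and the 2 tested probes of *Fgfr2* stayed within 1.26-fold of BSA, and *Spry4* was not above background on any array.

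FGF ligands bind receptor tyrosine kinases at the cell surface, together with heparan sulfate or, for the endocrine ligands, with Klotho proteins. The receptors recruit the adaptor FRS2 and switch on the Ras-ERK cascade. The same cascade induces its own inhibitors, among them the Sprouty proteins, which act on the way from receptor to Ras and Raf, and the phosphatase DUSP6, which removes phosphate from ERK. In the mammary gland FGF signaling is known for its part in the growth and branching of the ducts, with ligands from the stroma and receptors on the epithelium.

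C57MG is a mouse cell line derived from mammary epithelium, so all samples come from 1 line grown as monolayers. The control group received the carrier protein bovine serum albumin (BSA). The other 3 groups received Rspo2 (human, 100 ng/ml), Wnt3a (mouse, 100 ng/ml) or both at these doses, all as recombinant proteins, and RNA was taken after 24 h in unsupplemented DMEM. Each of the 4 groups had 3 monolayers, whose RNA was labeled with 1 dye and hybridized to 12 arrays. R-spondins are secreted proteins that strengthen Wnt signaling, so the comparisons ask how each protein alone and the combination altered FGF pathway mRNA.

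Levels are given as log2 of the background-subtracted intensity minus the 75th percentile of the same array, so that 0 is the 75th percentile and -1 is 2-fold below it. A probe was tested if 1 group or more had it marked by the scanner software as well above background on each of its 3 arrays, which 22750 probes did. A change was called if the adjusted p was under 0.05 and the change was at least 2-fold. All p-values are from limma with Benjamini-Hochberg adjustment over all tested probes, and the ± values of changes are standard errors.

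Between 51.3% and 64.1% of probes were well above background on an array, and the 75th percentile lay between 774 and 1146 intensity units. The first BSA array had the highest share (64.1%) and the first array of the combination the next (61.7%). The arrays lay on 3 slides, the BSA arrays all on slide 1 and the combination all on slide 3, so that slide and treatment can be told apart only through the Rspo2 and Wnt3a arrays, which were split between slides. Of 10 mammary epithelial marker genes with a probe, *Krt14* and *Krt8* were above background on all 12 arrays and *Cdh1* and *Csn2* on none. The summed level of these markers, relative to the 75th percentile, ran from 10.3 to 10.7 on the BSA arrays and from 9.78 to 12.3 on those with Rspo2, while Wnt3a gave 15.3 to 16.9 and the combination 22.5 to 25.9. Nearly all of this sum was *Krt14*, a basal keratin, which rose by 1.24 ± 0.10 with the combination (adjusted p = 8.28e-06). *Krt8*, a luminal keratin, moved the other way and fell by 1.04 and 1.15 on its 2 probes (adjusted p = 0.00104 and 0.000365). Thus 1 of 4 detected epithelial markers was called higher and 1 lower, where 1.28% and 3.79% of all tested probes were. Of 9 fibroblast and mesenchymal markers, 8 were above background on all arrays (*Thy1* on none), with sums of 567 to 574, 574 to 661, 610 to 666 and 589 to 612 in the same order. These sums were mostly *S100a4* and *Vim*. With the combination 3 of the 8 genes were lower by adjusted p on any probe and 0 higher, where 39.2% of all tested probes passed in either direction. *Pdgfra* fell by 1.37 on its brighter probe (adjusted p = 8.77e-06, called), and *Col3a1* and *Pdgfrb* changed by -0.85 and -0.60 (adjusted p = 0.00156 and 0.0015), under 2-fold. With Wnt3a alone 2 of the 8 were higher and 3 lower by adjusted p, where 31.5% of all tested probes passed. Blood and endothelial markers (2 of 6 on all arrays) summed to at most 2.96 and adipocyte markers (1 of 3) to at most 0.77. The part of these shifts in the FGF results was not tested, and in RNA from whole monolayers fewer cells of a type and less RNA per cell cannot be told apart.

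Of the 19 FGF probes, 15 were tested, representing 9 of the 10 genes, and 11 were above background on all 12 arrays. The 4 untested probes were both probes of *Spry4* and 1 probe each of *Fgf21* and *Fgfr2*. No probe was saturated. The 4 tested probes that missed background on some arrays, those of *Fgf2*, *Fgf7* and *Fgf21*, passed through the groups in which they read high, so the counts over tested probes below describe the measurements and are not offered as support. With Rspo2 alone 0 of 15 probes were called by limma, against 0.721% of all tested probes, although 4 had an unadjusted p under 0.05 (35% of all tested probes) and the methods' t-test also called 0. With Wnt3a alone 3 probes were called (2 higher, 1 lower), against 2.52% of all tested probes, 0.404% higher and 2.11% lower. With Rspo2 plus Wnt3a 4 were called (3 higher, 1 lower), against 5.08%, 1.28% higher and 3.79% lower. By adjusted p alone, without the fold requirement, 1 probe passed with Rspo2, 9 with Wnt3a and 8 with the combination, where 16.8%, 31.5% and 39.2% of all tested probes passed. These 3 comparisons share the BSA arrays.

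**Figure D1:**
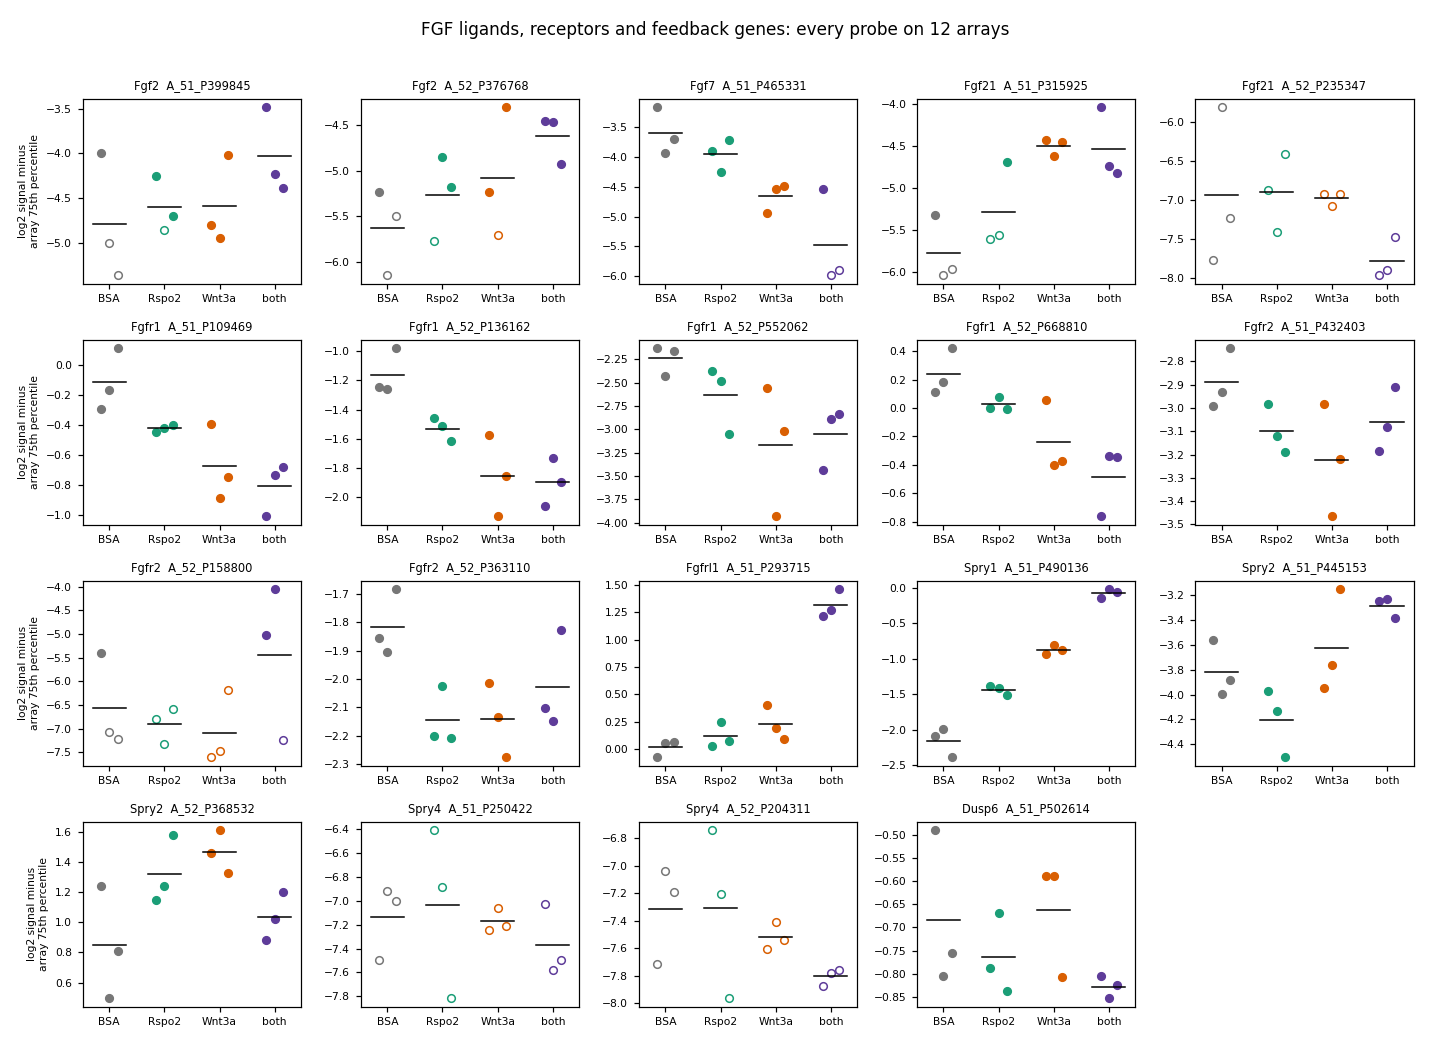
Level of each of the 19 probes on each of the 12 arrays. The y axis of each panel is log2 signal minus the 75th percentile of the array (scales differ between panels), points are arrays in 4 groups (both means Rspo2 plus Wnt3a), filled if well above background and open if not, and the black line is the group mean. *Spry1* climbed from -2.16 with BSA to -0.08 with the combination, *Fgfrl1* stood apart with the combination alone, and both panels of *Spry4* hold open points throughout.

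*Fgf7*, the keratinocyte growth factor, is a ligand made mainly by mesenchymal cells that acts on an epithelial splice form of FGFR2. The gene lies at chr2:126034658-126091185 (build GRCm38.p6, RefSeq) and had 1 probe. Its levels were -3.16, -3.93 and -3.69 with BSA, -3.89, -4.25 and -3.72 with Rspo2, -4.94, -4.54 and -4.49 with Wnt3a, and -4.54, -5.98 and -5.90 with the combination. All Wnt3a and combination arrays read below all BSA arrays, while Rspo2 overlapped with BSA. Of all tested probes, 45.5% did not overlap between Wnt3a and BSA and 54% between the combination and BSA. *Fgf7* fell by 1.06 ± 0.35 with Wnt3a (adjusted p = 0.039) and by 1.88 ± 0.35 with the combination (adjusted p = 0.00188), a ratio to BSA of 0.272. The combination was also lower than Rspo2 alone, by 1.52 on the log2 scale (adjusted p = 0.0129), whereas its difference from Wnt3a alone, -0.82, had an adjusted p of 0.24. The probe was above background on 1 of the 3 combination arrays, where it read 40.5, 15.1 and 17.7 intensity units against 75.3 to 106 with BSA, so the size of the fall with the combination rests partly on signals at background. The Wnt3a call was lost in 12 of 25 alternatives, among them those without BSA replicate 1 or 3, Rspo2 replicate 1, or any 1 Wnt3a array, where it ranged from -0.84 to -1.14 (adjusted p = 0.0515 to 0.133). The call for the combination against BSA was lost with another background correction (normexp), at -1.005 ± 0.557 (adjusted p = 0.333). It was also lost with the methods' t-test after Benjamini-Hochberg adjustment (adjusted p = 0.109), and with slide as a term, at -2.04 ± 0.88 (adjusted p = 0.317). The call against Rspo2 was lost in 6 of 25 alternatives. Among these were the fits without combination replicate 2 (-1.27, adjusted p = 0.0572) or 3 (-1.31, adjusted p = 0.0537). The change against Rspo2 was -1.45 with normexp (adjusted p = 0.227) and -1.74 with slide as a term (adjusted p = 0.217). The methods' t-test lost this call both without adjustment and after Benjamini-Hochberg adjustment (adjusted p = 0.259).

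*Fgf21*, an endocrine FGF that acts through β-Klotho and is known for its effects on metabolism, lies at chr7:45613890-45615490. Its tested probe read -5.32, -6.03 and -5.96 with BSA, -5.61, -5.56 and -4.69 with Rspo2, -4.43, -4.63 and -4.46 with Wnt3a, and -4.04, -4.74 and -4.83 with the combination. It was above background on all arrays given Wnt3a, alone or combined, and on 1 array each of BSA and Rspo2. The Wnt3a and combination arrays read above all BSA arrays, by 1.27 ± 0.28 for Wnt3a (adjusted p = 0.00748) and 1.24 ± 0.28 for the combination (adjusted p = 0.00592). Of all tested probes, 45.5% and 54% did not overlap with BSA in these comparisons. The probe was tested only because it was above background on all arrays of Wnt3a and of the combination. The BSA level was mostly not above background, so the sizes and p-values given here are a description and not support for a rise. The combination and Wnt3a alone differed by -0.03, with a 95% interval of -0.65 to 0.60. All intensities of this probe lay between 17.3 and 57.2 units, and both calls were lost with normexp, where the changes were 0.16 and -0.037, and with slide as a term, where they were 0.76 and 0.68. Both calls were lost too with the methods' t-test after Benjamini-Hochberg adjustment (adjusted p = 0.112 and 0.0796). The call for the combination was also lost without its replicate 1, at 0.99 (adjusted p = 0.0245). The other *Fgf21* probe was above background on no array and was not tested.

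*Fgf2*, basic FGF, is a broadly acting ligand without a classical signal peptide and lies at chr3:37348477-37410106. Its 2 probes, which target the same transcript, were near background. The probe printed at 10 spots read -3.99, -5.00 and -5.37 with BSA and -3.48, -4.24 and -4.38 with the combination, and the other read -5.24, -6.14 and -5.49 against -4.47, -4.48 and -4.93. With Rspo2 and with Wnt3a alone the means of both probes lay between these. Each probe was above background on 1 BSA array, replicate 1, and on all 3 arrays of the combination. The differences between the combination and BSA were 0.75 ± 0.37 (adjusted p = 0.134) and 1.00 ± 0.36 (adjusted p = 0.0469), the latter just short of 2-fold, so neither was called. Without BSA replicate 1, which had the highest share of probes above background, both were called, at 1.15 and 1.19 (adjusted p = 0.026 and 0.045). The BSA readings left in that fit were not above background on either probe. The first probe was tested only because it was above background on all arrays of Wnt3a and of the combination. The second was tested only through the combination. For both probes these differences and p-values are therefore a description and not support for a rise. Over the 25 alternatives that tested them, the differences from BSA ran from -0.043 to 1.15 and from -0.91 to 1.38. Their sign was kept in 24 and 23 of these, so the direction did not hold in every alternative. On slide 3 the combination differed from Wnt3a replicate 3 by -0.019 and -0.31, against 0.55 and 0.46 over all arrays.

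*Fgfr1*, the receptor tyrosine kinase that carries much of FGF signaling in mesenchymal and many cultured cells, lies at chr8:25518759-25575718 and had 4 probes, all above background on all 12 arrays. The probe printed at 10 spots read -0.30, -0.16 and 0.11 with BSA, -0.45, -0.42 and -0.40 with Rspo2, -0.39, -0.89 and -0.75 with Wnt3a, and -1.01, -0.74 and -0.68 with the combination. All BSA arrays were above all treated arrays. Over the 4 probes the change with Wnt3a was -0.56, -0.69, -0.93 and -0.48 (adjusted p = 0.0142, 0.00502, 0.0421 and 0.0328), and with the combination it was -0.69, -0.73, -0.81 and -0.72 (adjusted p = 0.00363, 0.00242, 0.0602 and 0.0035). None was called, since each change was under 2-fold. The third probe was called with Wnt3a in some alternatives. It was at -1.05 with the 75th percentile taken over probes above background on all arrays, and at -1.24 without Wnt3a replicate 1. With Rspo2 alone the 4 changes, -0.31, -0.37, -0.40 and -0.21, had adjusted p-values of 0.0929 to 0.393. The BSA arrays did not overlap with the Wnt3a or the combination arrays on any of the 4 probes, as held for 45.5% and 54% of all tested probes in these comparisons. The 4 probes are repeat measurements of 1 transcript on the same arrays and not 4 independent results. With slide as a term the changes with the combination were -0.62, -0.62, -0.65 and -0.56, and their adjusted p-values ranged from 0.462 to 0.748. The changes with Wnt3a in that fit are not given here.

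*Fgfr2*, whose epithelial form binds FGF7 and FGF10, lies at chr7:130162451-130266808. Its 2 tested probes were above background on all arrays and read -2.99, -2.93 and -2.74 (10 spots) and -1.86, -1.91 and -1.68 with BSA. The combination gave -3.19, -3.08 and -2.91 on the first and -2.10, -2.15 and -1.83 on the second, overlapping with BSA on both. The changes were -0.21 and -0.33 with Rspo2, -0.33 and -0.33 with Wnt3a and -0.17 and -0.21 with the combination, and the Wnt3a change of the second probe was the 1 with an adjusted p under 0.05 (0.0441). The 95% intervals with the combination were -0.45 to 0.11 and -0.46 to 0.03, which leave out a 2-fold change in either direction.

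*Fgfrl1*, also called FGFR5, resembles the FGF receptors outside the cell but lacks the tyrosine kinase domain inside it. The gene lies at chr5:108694229-108706950 and had 1 probe, above background on all arrays. Its levels were -0.08, 0.06 and 0.06 with BSA, 0.03, 0.25 and 0.08 with Rspo2, 0.41, 0.19 and 0.09 with Wnt3a, and 1.22, 1.27 and 1.46 with the combination. The 3 combination arrays stood clear of the other arrays, which lay between -0.08 and 0.41. The combination did not overlap with BSA on 54% of all tested probes. Rspo2 differed from BSA by 0.10 ± 0.10 (adjusted p = 0.509) and Wnt3a by 0.22 ± 0.10 (adjusted p = 0.141). The combination was 1.30 ± 0.10 above BSA (adjusted p = 9.45e-06). The combination was 2.12-fold higher than Wnt3a alone (adjusted p = 0.000193) and 2.29-fold higher than Rspo2 alone (adjusted p = 2.79e-05). The call against Wnt3a was lost with normexp, at 0.986, just under 2-fold. It was also lost with the methods' t-test after Benjamini-Hochberg adjustment (adjusted p = 0.166). The interaction, which is the change with the combination minus the changes with Rspo2 and with Wnt3a, was 0.98 ± 0.15 (adjusted p = 0.00504), a 1.97-fold excess that fell just short of the 2-fold requirement. On slide 3, which held the combination and Wnt3a replicate 3, the combination was higher by 1.22, and with slide as a term the change against BSA was 1.37 ± 0.23 (adjusted p = 0.0208).

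**Figure D2:**
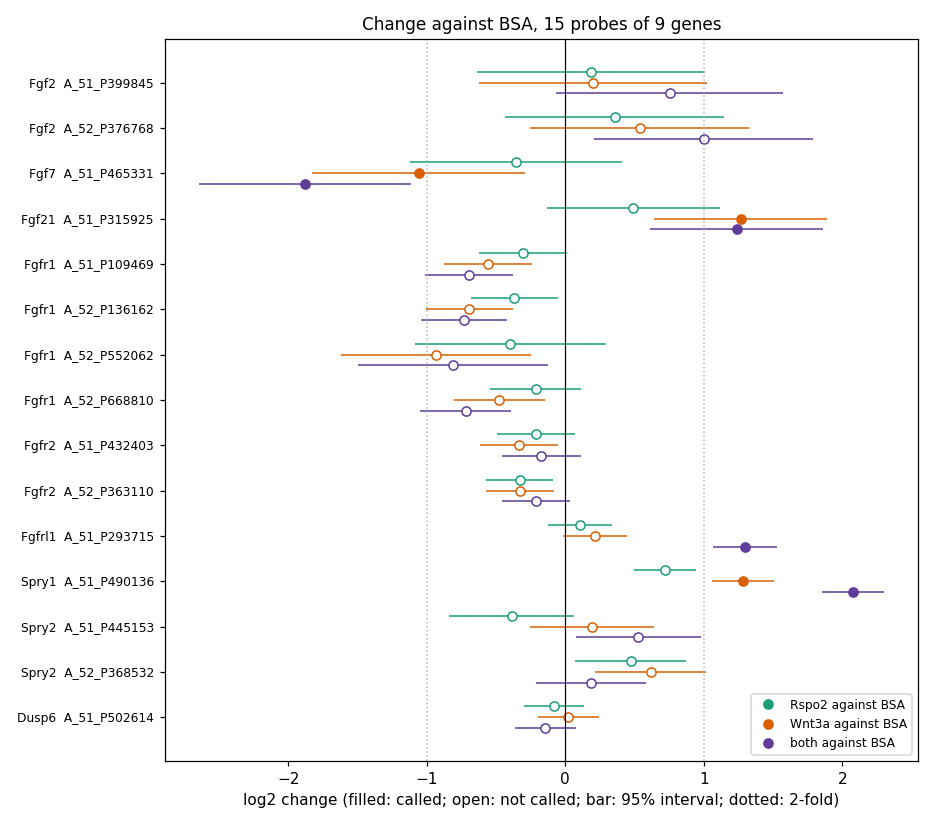
Log2 change against BSA of the 15 tested probes. The x axis is the log2 change, points are filled where called, bars are 95% intervals from limma and dotted lines mark 2-fold, with 3 rows per probe for Rspo2, Wnt3a and the combination. The combination interval of *Spry1* runs from 1.85 to 2.30 and that of *Fgfrl1* from 1.07 to 1.53, while the intervals of *Fgf2*, *Fgf7* and *Fgf21* are wide.

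*Spry1*, a Sprouty inhibitor of receptor tyrosine kinase signaling, lies at chr3:37639947-37644599 and had 1 probe, above background on all arrays. It read -2.08, -1.99 and -2.39 with BSA, -1.38, -1.41 and -1.52 with Rspo2, -0.94, -0.81 and -0.87 with Wnt3a, and -0.15, -0.02 and -0.06 with the combination. The 4 groups did not overlap and lay in the order BSA, Rspo2, Wnt3a and combination. Of all tested probes, 45.5% did not overlap between Wnt3a and BSA and 54% between the combination and BSA. The increase was 0.72 ± 0.10 with Rspo2 (1.65-fold, adjusted p = 0.00522, under the 2-fold requirement), 1.28 ± 0.10 with Wnt3a (2.43-fold, adjusted p = 4.65e-05) and 2.08 ± 0.10 with the combination (4.22-fold, adjusted p = 3.56e-07). The combination was 1.73-fold above Wnt3a alone (adjusted p = 0.0013) and 2.56-fold above Rspo2 alone (adjusted p = 9.33e-06). The change with the combination exceeded the sum of the changes with each protein by 0.07 (the interaction), with a 95% interval of -0.24 to 0.39. Within slide 1 Rspo2 replicate 1 was 0.77 above the BSA arrays, and within slide 3 the combination was 0.79 above Wnt3a replicate 3. With slide as a term the change with the combination was 2.16 ± 0.26 (adjusted p = 0.0051). The call with Wnt3a was lost with normexp, where the change was 0.83 (adjusted p = 0.138), and with the methods' t-test after Benjamini-Hochberg adjustment (adjusted p = 0.0561). The call against Rspo2 was lost with normexp, at 0.92 (adjusted p = 0.0935).

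The 2 probes of *Spry2*, another Sprouty gene, at chr14:105891947-105896819, were above background on all arrays and did not move alike. The probe designed to an expressed sequence tag read 1.24, 0.49 and 0.81 with BSA, 1.15, 1.24 and 1.58 with Rspo2, 1.46, 1.61 and 1.33 with Wnt3a and 0.88, 1.02 and 1.20 with the combination. The probe designed to the RefSeq transcript read -3.56, -4.00 and -3.89, then -3.97, -4.13 and -4.50, then -3.95, -3.76 and -3.15, and -3.25, -3.23 and -3.39 in the same order. The first was highest with Wnt3a (0.62 ± 0.18, adjusted p = 0.025) and differed from BSA by 0.19 with the combination (adjusted p = 0.453). The second differed from BSA by 0.19 with Wnt3a (adjusted p = 0.499) and was highest with the combination, 0.53 ± 0.20 above BSA (adjusted p = 0.0611) and 0.92 ± 0.20 above Rspo2 (adjusted p = 0.0112). Their interactions had opposite signs, -0.90 (adjusted p = 0.0526) and 0.72 (adjusted p = 0.127). No *Spry2* change was called, and a direction for the gene cannot be given from these probes.

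*Spry4* had 2 probes, which read 3.17 to 12 intensity units over the 12 arrays and were above background on 0 of them. Its mRNA was therefore not detectable on these arrays, and no change is given. *Dusp6*, at chr10:99263231-99267489, a phosphatase gene that ERK signaling induces, read -0.49, -0.81 and -0.76 with BSA, -0.79, -0.67 and -0.84 with Rspo2, -0.59, -0.59 and -0.81 with Wnt3a, and -0.80, -0.85 and -0.82 with the combination. All 4 groups overlapped, and the changes against BSA were -0.08, 0.02 and -0.14, with adjusted p-values of 0.597, 0.884 and 0.282. The 95% interval with the combination, -0.36 to 0.08, leaves out a 2-fold change in either direction.

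**Figure D3:**
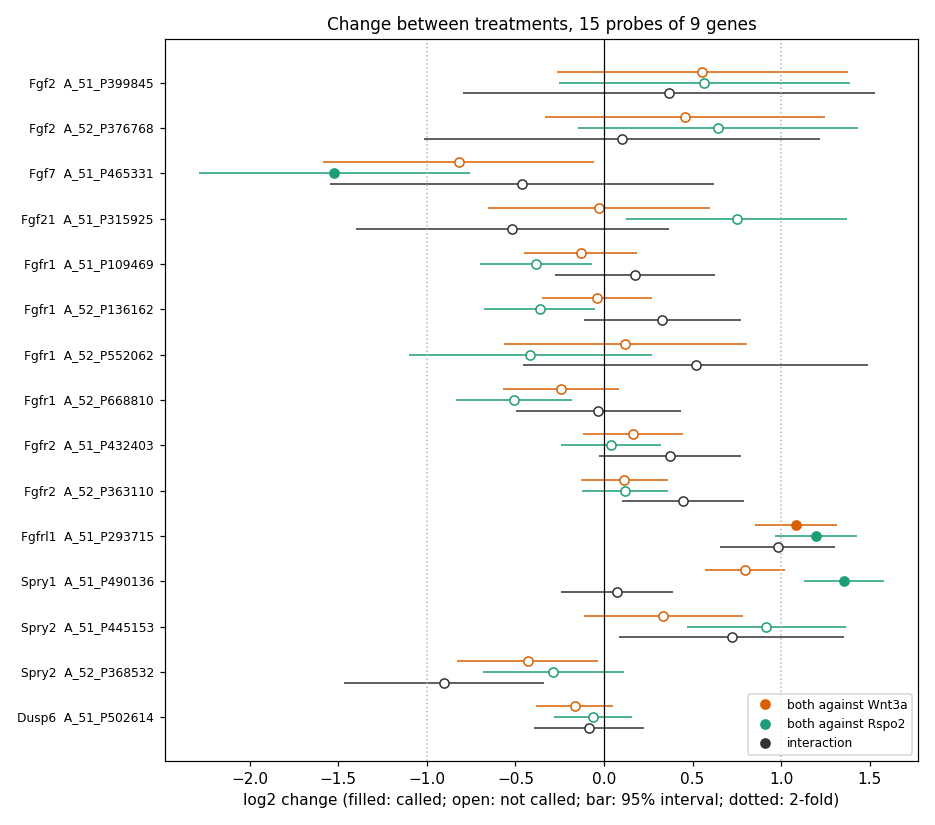
Log2 change of the combination against each protein alone, and the interaction, for the 15 tested probes. The x axis is the log2 change, points are filled where called, bars are 95% intervals and dotted lines mark 2-fold. *Fgfrl1* shows an interaction of 0.98 and *Spry1* of 0.07, and the interactions of the 2 *Spry2* probes point in opposite directions.

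Against Wnt3a alone, the combination gave 1 call among the 15 probes, *Fgfrl1*, where 0.747% of all tested probes were called. Against Rspo2 alone it gave 3 calls, *Spry1*, *Fgfrl1* and *Fgf7*, where 2.67% were called. For the interaction limma called 0 of 15, against 1.93% of all tested probes, with 4 at an unadjusted p under 0.05 (29.3% of all tested probes), and no other tool was run on it. By adjusted p alone, 2 probes passed against Wnt3a (4.27% of all tested probes), 5 against Rspo2 (16.5%) and 1 in the interaction (8.9%).

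RefSeq promoter windows (build GRCm38.p6), from 250 bases before to 50 after a start site, were found for 8 of the 10 genes. In 7 of them that site was the start of the gene as given above, and in *Fgf2* the window ran from 74 bases before the gene start to 226 bases from it on. They are shown for *Spry1* and *Fgfrl1*, which rose, and for *Fgf7*, which read lower. The *Fgf7* signals were close to background, and its calls were lost in some alternatives. The windows are chr3:37639697-37639996, chr5:108693979-108694278 and chr2:126034408-126034707, all on the plus strand and written 5′ to 3′. Capitals mark CTTTG or its reverse complement CAAAG, the short core that TCF/LEF factors, the DNA-binding partners of β-catenin, are known to prefer.
Spry1: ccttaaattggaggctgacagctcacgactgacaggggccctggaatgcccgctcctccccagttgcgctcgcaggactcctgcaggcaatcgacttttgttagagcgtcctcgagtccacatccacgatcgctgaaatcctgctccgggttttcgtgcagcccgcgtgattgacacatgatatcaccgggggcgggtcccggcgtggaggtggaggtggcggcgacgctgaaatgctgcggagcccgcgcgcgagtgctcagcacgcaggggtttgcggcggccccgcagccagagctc
Fgfrl1: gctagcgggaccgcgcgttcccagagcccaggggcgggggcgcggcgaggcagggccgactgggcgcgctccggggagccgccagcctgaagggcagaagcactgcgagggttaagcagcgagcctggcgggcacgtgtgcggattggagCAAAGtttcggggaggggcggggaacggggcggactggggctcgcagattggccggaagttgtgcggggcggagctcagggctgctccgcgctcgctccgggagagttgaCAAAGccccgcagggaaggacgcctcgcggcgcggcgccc
Fgf7: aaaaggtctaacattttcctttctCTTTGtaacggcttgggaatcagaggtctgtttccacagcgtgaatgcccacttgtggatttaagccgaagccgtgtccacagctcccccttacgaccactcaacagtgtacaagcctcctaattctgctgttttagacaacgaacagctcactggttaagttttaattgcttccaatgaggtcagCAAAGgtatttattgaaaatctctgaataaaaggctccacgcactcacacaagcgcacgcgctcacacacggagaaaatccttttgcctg
The core was present 2 times in the *Fgfrl1* window and 2 times in that of *Fgf7*, and it was not in the *Spry1* window. On either strand it occurred in 53.9% of 32851 promoter windows and in 5 of the 8 FGF windows, and the longer CTTTGAT (reverse ATCAAAG) occurred in 3.73% of all windows and in 0 of the 8. The GC content was 64.3% for *Spry1*, 73.7% for *Fgfrl1* and 45.7% for *Fgf7*. These matches describe the windows and are not binding sites.

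The rest of the pathway was read from lists of genes. A gene of a list was counted if any of its tested probes passed, while the shares beside the counts are of probes, so these differ in unit. Over the 6 comparisons, the share of all tested probes called ran from 0.721% (Rspo2 against BSA) to 5.08% (combination against BSA). Of 15 other secreted FGF ligands, 14 had a probe and 2 were detected, *Fgf8* and *Fgf18*, with 0 called by limma in the 6 comparisons and 1, *Fgf18* for the combination against Wnt3a, at an unadjusted p under 0.05 (18.4% of all tested probes). No other tool was run on the lists. Of 4 intracellular FGF homologs, 1 was detected, *Fgf11*, and was not called or at an unadjusted p under 0.05 in any comparison. Of 9 other receptors and co-factors, 5 were detected and 0 were called by limma against BSA, though 3 had a probe at an unadjusted p under 0.05 with the combination (47.9% of all tested probes). The interaction was called for 2 of them, *Fgfr4* (1.17 ± 0.24, adjusted p = 0.0203) and *Flrt2*, a transmembrane protein that binds FGF receptors (1.15 ± 0.21, adjusted p = 0.0133), where 1.27% of all tested probes were called higher. The other tested probe of *Fgfr4* had an interaction of -0.31 (adjusted p = 0.57), and the other of *Flrt2* had 0.53 (adjusted p = 0.0279). All 18 genes of the adaptors and the Ras-ERK cascade were detected and 0 were called by limma in any comparison, where few of all tested probes were. With the combination against BSA, 7 were at an unadjusted p under 0.05 (47.9% of all tested probes). By adjusted p, 5 of the 18 passed there (2 higher, 3 lower), where 39.2% of all tested probes did. The median change of their brightest probes with the combination was -0.02, against 0.04 over all tested probes.

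Among 8 other feedback inhibitors with a probe, 6 were detected. *Dusp4*, a nuclear ERK phosphatase, rose with the combination on both probes, by 1.49 ± 0.10 (adjusted p = 2.39e-06) and 1.46 ± 0.12 (adjusted p = 1.37e-05). With Wnt3a alone it rose by 1.03 on the second probe, while the first was 0.70 above BSA, under 2-fold. *Spred2*, a Sprouty-related inhibitor, was called against Rspo2 alone on 1 probe (1.03 ± 0.10, adjusted p = 7.22e-05) and read 0.78 and 0.86 above BSA with the combination on its 2 probes (adjusted p = 0.000273 and 0.00357), under 2-fold. The median change of the list with the combination was 0.09. The 7 transcription factors of the list of ERK-responsive genes were all detected and 0 were called by limma. With the combination against BSA, 5.08% of all tested probes were called. With the combination against BSA 2 had an unadjusted p under 0.05 (47.9% of all tested probes), and the median change was 0.14. Both also passed by adjusted p (39.2% of all tested probes), 1 higher and 1 lower. In the interaction, a separate comparison, 2 of the 7 passed by adjusted p, both negative, where 8.9% of all tested probes passed. These were *Egr1* and *Etv1*, named here after their values were seen, at -0.97 (adjusted p = 0.00195) and -0.67 (adjusted p = 0.00671).

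The 5 other genes whose levels were most like those of *Spry1* over the 12 arrays, among probes above background on all of them, were *Ptar1* (Pearson r = 0.989), *Sdc2* (0.987), *Tpst2* (0.985), *Arl4c* (0.985) and *Ap3m1* (0.985). The arrays fall into 4 treatment groups, so these values describe a shared order of groups. *Sdc2*, which encodes the heparan sulfate proteoglycan syndecan-2, read 0.38, 0.70 and 1.26 above BSA with Rspo2, Wnt3a and the combination. *Arl4c*, a small GTPase gene, read 0.35, 0.77 and 1.29 above BSA in the same order. The changes of *Ap3m1*, 0.18, 0.29 and 0.48, were smaller.

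**Figure D4:**
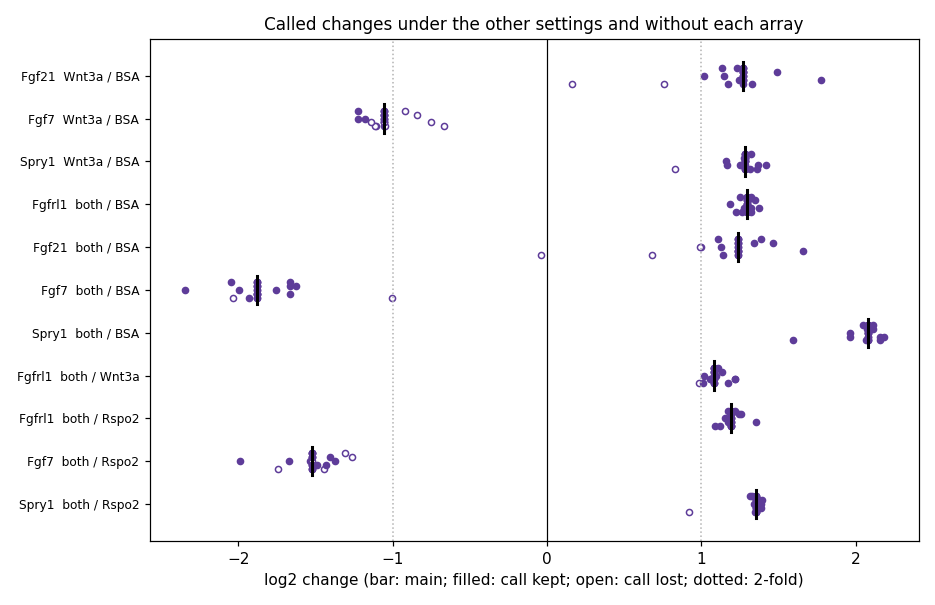
The 11 called changes of FGF probes under the alternatives and without each array. The x axis is the log2 change, the black bar is the value as reported, points are the other settings, filled where the call was kept and open where it was lost, and dotted lines mark 2-fold. *Spry1* and *Fgfrl1* with the combination against BSA, and *Fgfrl1* against Rspo2, stayed called in all 26 settings, while *Fgf21* reached -0.037 in 1 setting.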

How the data were processed

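All 12 arrays of the series were used. The authors hybridized Alexa-555-labeled cRNA in 1 color to 4 × 44K arrays and made the intensity values with Agilent Feature Extraction 9.5.3.1, which subtracted background, and these deposited intensities were the main values. The authors also deposited a table of ratio values, each signal divided by the 75th percentile of its array, which was used as an alternative.

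Spot values marked as uneven or outliers (1327 of 520548) were left out, spots of a probe were averaged, and the 75th percentile of each array was taken off its log2 values. A probe was well above background on an array if at least 0.5 of its spots were. Groups were taken from the labels. The 4 group means were fitted in 1 model with limma 3.58.1 in R 4.3.3, with 6 comparisons, each adjusted over 22750 probes. In simulated data of 22712 probes for the combination against BSA, the fit called 93% of probes changed 3-fold and 99% of those changed 4-fold, with 1 call among unchanged probes. The simulated noise was independent and held no slide effect, and the changed probes were drawn at random. These shares are therefore not error rates for probes near background or for differences between slides. The methods' t-test for unequal variances was run as an alternative. Alternatives were 14 other settings and fits without each array in turn (12). The number of arrays limits the precision.

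Named genes are the 10 FGF genes with every probe, genes of the other FGF lists with a called probe, and the 5 genes most like the FGF probe that changed most with the combination among those above background on all arrays. *Fgf8*, *Fgf11*, *Fgf18*, *Egr1*, *Etv1* and the cell type markers fall outside this rule and were named after their values were seen. The genes, lists and tests were chosen with earlier results of these data known. Probes were named by the gene symbols of the scanner files. Positions and promoters are from RefSeq, GRCm38.p6. Scripts ran in Python 3.11.15 with pandas 2.3.3 and matplotlib 3.10.9.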

Additional observations from a re-analysis of the deposited data

Results flagged for a closer look

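The effect of Wnt3a on *Fgfrl1* differed with and without Rspo2, by the test of the difference itself. The interaction was 0.979 on the log2 scale (SE 0.15, adjusted p = 0.00504 by limma), as Wnt3a changed *Fgfrl1* by 0.22 without Rspo2 and by 1.19 with it. The 95% interval of the interaction was 0.65 to 1.31. It was under 2-fold as reported and past 2-fold in 7 alternatives, with slide as a term (1.20, adjusted p = 0.038), with the 75th percentile taken over probes above background on all arrays (1.09), and without BSA replicate 1 (1.02), Rspo2 replicate 2 (1.04), Wnt3a replicate 1 (1.07) or combination replicates 1 (1.03) or 2 (1.00). With normexp it was 0.81, with an adjusted p of 0.445.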

How the results depend on the processing

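Of 11 called changes, 3 were kept in all 26 settings, those of *Spry1* and *Fgfrl1* with the combination against BSA and of *Fgfrl1* against Rspo2. In the order Wnt3a against BSA, combination against BSA, combination against Wnt3a and combination against Rspo2, the reported counts of FGF probes called were 3, 4, 1 and 3. They became 0, 2, 0 and 1 with normexp background correction, which also turned the change of *Fgf21* with the combination to -0.037. With the methods' t-test and Benjamini-Hochberg adjustment the counts against BSA were 0 and 2 and that against Wnt3a was 0. With probes above background on all 12 arrays the counts against BSA were 1 and 2, as *Fgf7* and *Fgf21* were then not tested. Slide as a term gave 1 and 2 against BSA and 1 interaction, and the percentile over probes above background on all arrays gave 1 interaction. Without the fold requirement the counts were 9, 8, 2 and 5, with 1 for Rspo2 and 1 interaction. Leaving out each array in turn gave 0 for Rspo2, 2 to 3 for Wnt3a, 3 to 6 for the combination, 1 to 2 against Wnt3a, 2 to 4 against Rspo2 and 0 to 2 interactions, where BSA replicate 1 gave the count of 2. Where a call was lost, the cause was not tested. The percentile over probes above background on all arrays moved the median change of all probes with Wnt3a from -0.00028 to -0.12, and normexp moved that with Rspo2 from 0.01 to 0.15. Replicate numbers did not pair the arrays: the correlations of deviations between same-numbered arrays ran from -0.52 to 0.32, with 3 of 18 pairs above 0.1. A replicate block left the counts at 0, 3, 4, 1 and 3, with 0 interactions. Signals near background limit *Fgf2*, *Fgf7* and *Fgf21*.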

Other observations

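*Fgf2* and *Spry1* both lie on chromosome 3, with 229840 bases between the end of the first and the start of the second (GRCm38.p6). Whether other genes lie between them was not checked. Both read higher with the combination than with BSA, though the *Fgf2* change was not called and its sign differed in some alternatives. The untested probe of *Fgfr2* was uneven among the combination arrays, at 28.9, 57.7 and 6.99 intensity units, and read 22.4, 8.5 and 7.27 units with BSA.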
